A study of Saccharomyces cerevisiae with 8 samples.

Results

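The introns of nuclear tRNA genes were followed in ribosome-depleted total RNA of the haploid budding yeast strain BY4741 under combinations of cycloheximide, which blocks translation elongation, and LiCl, a salt stress. The features were chosen by identifier: every row of the intron table named as a tRNA gene, with an amino-acid letter and an anticodon, was taken. This gave 60 of 347 features in the intron table, or of 371 when the separately counted 5′ untranslated region introns are added. The 60 introns fall into 11 families by amino acid and anticodon. One library was made for each of 8 conditions in YPD medium. Point 1 held cycloheximide only, points 2 to 6 were mixtures with a changing ratio of the drugs, point 7 held LiCl only, and the last culture received no drug. The 7 drug conditions lie on one isobole, meaning that each was set to inhibit growth by 50%. All cultures were harvested at a similar density after about 17 h, for which the drug-free culture was inoculated at a lower density. The drug-free library thus differs from the others in inoculum as well as in drug. There were no replicate libraries, so a difference between 2 libraries has no replicate check.

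Intron-containing tRNA genes of yeast are transcribed by RNA polymerase III as precursors. The intron sits next to the anticodon and is cut out by the Sen2, Sen34, Sen54 and Sen15 endonuclease on the mitochondrial surface, after the precursor has left the nucleus. Trl1 then joins the exons, Tpt1 removes the phosphate left at the junction, and the freed introns are normally destroyed by the cytoplasmic exonuclease Xrn1. A full-length read over a tRNA intron can come from the precursor or, only where the read fits inside the intron, from the freed intron.

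In the RefSeq reference build R64 all 60 features equalled the gap between the annotated exons of a tRNA gene, on 14 chromosomes, 37 on the plus and 23 on the minus strand. In all 59 members with a named anticodon, the first exon ended with that anticodon and 1 further base. The introns were 14 to 34 bases long in 58 members and 60 bases in the remaining 2. Reads were 50 bases long, so a full-length read over any of the 58 short introns also carried at least 16 further bases. Only in the tI(UAU) genes could a read lie wholly inside the intron, at 11 of the 109 read starts that touch it. The 60 genes have 29 distinct sequences and 27 distinct intron sequences.

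The gene sequences that carry the results are printed 5′ to 3′ from the RefSeq reference build R64, with the intron in capitals and the exons in lower case. The first set holds the families with the most reads over the intron: isoleucine tI(UAU)L (chromosome XII, intron at bases 605336 to 605395, minus strand), serine tS(GCU)F (chromosome VI, 191558 to 191576, minus strand) and tX(XXX)L (chromosome XII, 784390 to 784409, plus strand), which the annotation calls a tRNA of undetermined specificity that resembles serine tRNAs.
tI(UAU)L: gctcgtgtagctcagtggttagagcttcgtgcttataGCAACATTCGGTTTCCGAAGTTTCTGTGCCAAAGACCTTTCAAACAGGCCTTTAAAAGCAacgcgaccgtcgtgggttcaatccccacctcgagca
tS(GCU)F: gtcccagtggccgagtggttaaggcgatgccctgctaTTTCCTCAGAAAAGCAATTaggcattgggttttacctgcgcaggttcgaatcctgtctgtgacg
tX(XXX)L: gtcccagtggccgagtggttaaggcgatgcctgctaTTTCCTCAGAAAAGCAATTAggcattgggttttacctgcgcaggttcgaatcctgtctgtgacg

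The next 3 genes stand for families whose levels moved differently across the libraries: serine tS(CGA)C (SUP61, chromosome III, 227979 to 227997, plus strand), tryptophan tW(CCA)P (chromosome XVI, 56205 to 56238, minus strand) and leucine tL(CAA)G3 (chromosome VII, 857422 to 857453, minus strand).
tS(CGA)C: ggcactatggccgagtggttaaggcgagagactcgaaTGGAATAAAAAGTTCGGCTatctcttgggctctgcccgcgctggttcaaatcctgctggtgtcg
tW(CCA)P: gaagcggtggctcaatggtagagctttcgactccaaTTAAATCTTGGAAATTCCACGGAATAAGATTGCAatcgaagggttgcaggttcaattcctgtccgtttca
tL(CAA)G3: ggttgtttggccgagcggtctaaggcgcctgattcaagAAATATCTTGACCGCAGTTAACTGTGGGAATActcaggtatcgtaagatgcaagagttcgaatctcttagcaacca

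The last set holds genes used to compare copies within a family: the usual lysine gene tK(UUU)D (chromosome IV, 359614 to 359636, plus strand) beside tK(UUU)G2 (chromosome VII, 700989 to 701011, minus strand), the usual tyrosine gene tY(GUA)F2 (SUP6, chromosome VI, 210655 to 210668, minus strand) beside tY(GUA)D (SUP2, chromosome IV, 946351 to 946364, plus strand), and the proline gene tP(UGG)N1 (chromosome XIV, 547130 to 547160, plus strand). In both variant pairs the only substitution is C5T, counted from the first base of the intron, with the base of the usual gene first.
tK(UUU)D: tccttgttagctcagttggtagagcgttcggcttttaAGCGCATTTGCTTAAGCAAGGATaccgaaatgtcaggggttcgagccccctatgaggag
tK(UUU)G2: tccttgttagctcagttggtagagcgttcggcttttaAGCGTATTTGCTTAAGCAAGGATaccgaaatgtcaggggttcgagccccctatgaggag
tY(GUA)F2: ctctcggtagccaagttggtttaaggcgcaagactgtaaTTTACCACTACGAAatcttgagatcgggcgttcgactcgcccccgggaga
tY(GUA)D: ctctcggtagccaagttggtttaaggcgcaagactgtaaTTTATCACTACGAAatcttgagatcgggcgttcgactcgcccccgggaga
tP(UGG)N1: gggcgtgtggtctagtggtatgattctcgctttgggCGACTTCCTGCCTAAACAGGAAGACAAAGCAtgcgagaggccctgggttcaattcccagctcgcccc

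The libraries held 13693401 to 28042336 counts in coding sequences and 21102 to 89445 counts in the 60 tRNA introns, and tRNA introns took 20.8% to 33.8% of the counts of nuclear introns. Strain markers followed the label: URA3 had 0 counts in every library, LEU2 at most 1 and MET17 at most 2, while the a-cell genes MFA1 and STE2 had at least 678 and 1668 counts. HIS3, of which the strain keeps a part, had 347 to 1266 counts, and the alpha-cell gene MF(ALPHA)1 had 3 to 18. Levels are given in CPM, counts per 1000000 coding-sequence counts after TMM scaling (trimmed mean of M-values, TMM factors 0.855 to 1.07).

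Across the drug mixtures, reads over tRNA introns went through a low at isobole point 3. Of the 60 features 55 had their lowest level there, as did the mean levels of 10 of the 11 families and of 26 of the 29 distinct gene sequences. The summed level of all 60 features was 2892 CPM without drug and 3060 CPM in cycloheximide only. It was 2063, 1195, 1509, 2073 and 2861 CPM at points 2 to 6 and 2990 CPM in LiCl only. On the TMM scale both single-drug libraries were thus close to the drug-free library, and the lowest mixture lay well below all of these 3. A read that matches several copies was counted at each of them, so this sum is not a number of molecules.

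The 5 members that were not lowest at point 3 were tS(CGA)C and tL(CAA)L, lowest at point 4, tP(UGG)H and tP(UGG)N2, lowest in cycloheximide only, and tL(UAG)L1, lowest at point 5. The last 3 of these had fewer than 10 counts in every library. For comparison, 17.8% of the 258 other nuclear introns with a mean of at least 5 counts were lowest at point 3 and 41.5% were lowest without drug, whereas 73.3% of them were highest in LiCl only. The tRNA features were highest without drug in 19 cases, in cycloheximide only in 18, in LiCl only in 11 and at point 6 in 10.

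**Figure D1:**
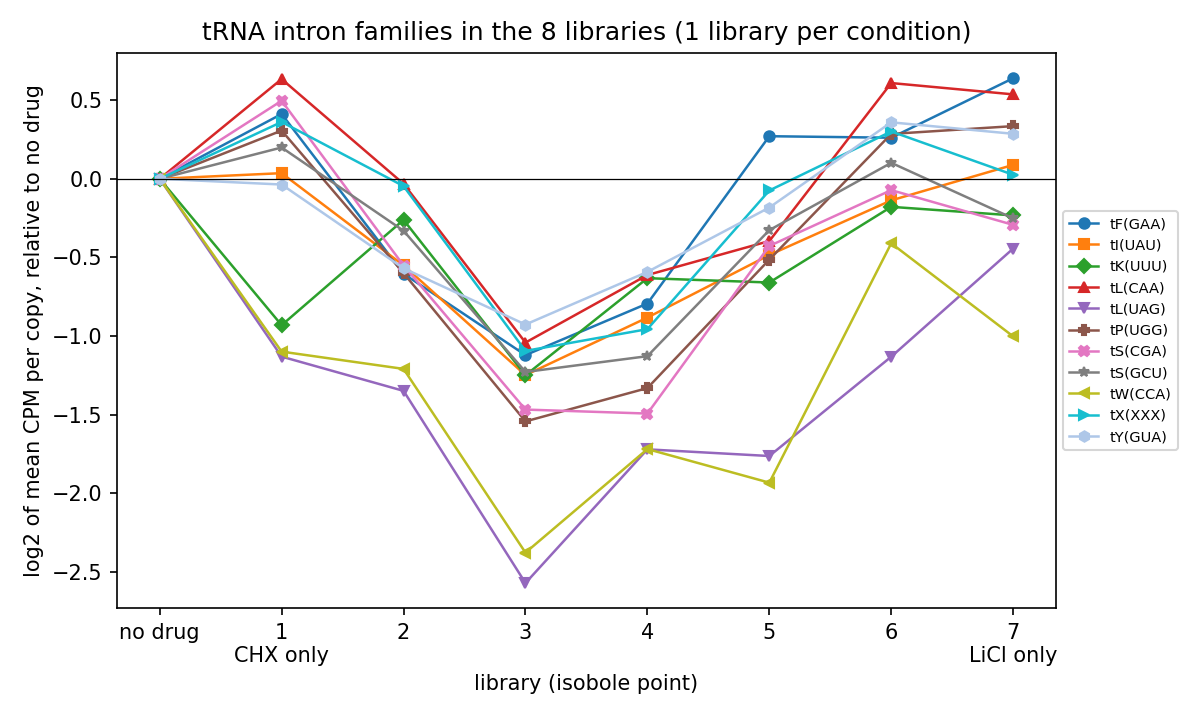
Level of each tRNA intron family (mean CPM per copy) as log2 relative to the drug-free library, in the drug-free library and along isobole points 1 to 7, with 1 line per family, 1 library per point and no error bars. All 11 families lie below the drug-free library at point 3, from -0.93 for tY(GUA) to -2.57 for tL(UAG), and tW(CCA), tK(UUU) and tL(UAG) lie below it in all 7 drug libraries.

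Isoleucine tRNA introns dominated the reads. The 2 tI(UAU) genes, which share 1 intron sequence and differ by 1 base in their exons, held 59.1% to 66.8% of all tRNA intron counts. Their mean level per copy was 930 CPM without drug and 953 CPM in cycloheximide only. It was 635, 391, 504, 664 and 845 CPM at points 2 to 6 and 988 CPM in LiCl only. The level therefore was lowest at point 3 and was higher at every later point than at the one before. For tI(UAU)L the exact Poisson 95% intervals, which cover counting error only, were 389 to 407 CPM at point 3, 993 to 1016 CPM in LiCl only, 958 to 983 CPM in cycloheximide only and 935 to 968 CPM without drug. The interval at point 3 stood far from the other 3, and those without drug and in cycloheximide only overlapped. The 2 copies kept a narrow ratio, with tI(UAU)D at 95.4% to 97.3% of the counts of tI(UAU)L in the 8 libraries.

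Serine introns came next. tS(GCU) had a mean level per copy of 179 CPM without drug and 206 CPM in cycloheximide only, with 142, 76.4, 82.0, 143 and 192 CPM at points 2 to 6 and 150 CPM in LiCl only. tX(XXX)L went through 120 CPM without drug, 154 CPM in cycloheximide only, 116, 56.1, 61.8, 114 and 148 CPM at points 2 to 6, and 122 CPM in LiCl only. Both were highest in cycloheximide only and had nearly flat lows at points 3 and 4. The whole tX(XXX)L gene aligned to tS(GCU)F with 100 of 101 bases identical, being 1 base shorter, and its annotated intron starts with all 19 bases of the tS(GCU) intron. Of its 69 read starts over the intron, 17 give a 50-base read found only once in the genome. The other 52 give a read that occurs at more than 1 place, 23 of them in a tS(GCU) gene. Its counts were 0.669 to 0.815 of those of tS(GCU)F. Reads of these genes thus cannot be fully assigned to a single gene.

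The single tS(CGA) gene, SUP61, which encodes the only tRNA of its kind in yeast, has an intron that shares no 50-base read with any other place in the genome. Its level was 19.6 CPM without drug and 27.6 CPM in cycloheximide only. It was 13.4, 7.08, 6.95, 14.6 and 18.6 CPM at points 2 to 6 and 16.0 CPM in LiCl only. At points 3 and 4 the Poisson intervals were 5.89 to 8.43 and 5.71 to 8.39 CPM and overlapped nearly whole. The cycloheximide interval, 25.6 to 29.8 CPM, lay above all 7 other libraries. The low at points 3 and 4 was thus also present in a feature that shares no 50-base stretch with another gene.

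Leucine tL(CAA) introns had a mean level per copy of 19.5 CPM without drug and 30.3 CPM in cycloheximide only. They had 19.1, 9.48, 12.8, 14.8 and 29.8 CPM at points 2 to 6 and 28.3 CPM in LiCl only, so that points 1, 6 and 7 stood together above the rest. All 10 copies were highest in cycloheximide only. The 3 tL(UAG) introns were the least covered family per base, with 0.561 CPM per copy without drug, 0.256 in cycloheximide only, 0.0944 at point 3 and 0.412 in LiCl only. In counts, tL(UAG)L2, the highest copy, had 9 without drug, 7 in cycloheximide only, 2, 1, 3, 3 and 4 at points 2 to 6 and 14 in LiCl only, and the lowest, tL(UAG)L1, had 4, 5, 6, 3, 2, 2, 4 and 9. Such counts do not separate neighbouring libraries.

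Tryptophan tW(CCA) introns set themselves apart by their height without drug. The mean level per copy was 29.7 CPM without drug, 13.9 CPM in cycloheximide only, 12.9, 5.72, 9.03, 7.79 and 22.4 CPM at points 2 to 6 and 14.8 CPM in LiCl only. All 6 copies were highest without drug, and the difference from it was -1.10 (counting SE 0.11) in cycloheximide only and -1.002 (counting SE 0.10) in LiCl only. For tW(CCA)P the Poisson intervals were 26.9 to 32.9 CPM without drug and 20.2 to 24.9 CPM at point 6, the nearest library, and did not overlap. The 6 genes have the same sequence, so these are not 6 independent measurements.

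Lysine tK(UUU) introns were likewise highest without drug in 6 of 7 copies. Their mean level per copy was 4.10 CPM without drug and 2.15 CPM in cycloheximide only, with 3.42, 1.72, 2.64, 2.59 and 3.62 CPM at points 2 to 6 and 3.49 CPM in LiCl only. The change from no drug was -0.93 (counting SE 0.28) in cycloheximide only and -0.23 (counting SE 0.24) in LiCl only, the latter within its counting error.

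Phenylalanine tF(GAA) introns had 3.89 CPM per copy without drug and 5.18 CPM in cycloheximide only. They had 2.56, 1.79, 2.25, 4.70 and 4.67 CPM at points 2 to 6 and 6.06 CPM in LiCl only, where 7 of the 10 copies were highest. Tyrosine tY(GUA) introns, the shortest at 14 bases, had 3.50 CPM per copy without drug, 3.41 in cycloheximide only, 2.36, 1.84, 2.32, 3.08 and 4.49 at points 2 to 6 and 4.27 in LiCl only. Proline tP(UGG) introns had a mean of 6.48 CPM per copy without drug and 8.02 CPM in cycloheximide only, with 4.28, 2.23, 2.58, 4.54 and 7.90 CPM at points 2 to 6 and 8.18 CPM in LiCl only. Without drug tP(UGG)N1, tP(UGG)O2, tP(UGG)O1 and tP(UGG)O3 had 26.2, 15.8, 10.9 and 9.71 CPM, and no other proline copy exceeded 0.612 CPM. The proline mean thus follows these copies, of which the first 3 lie inside counted coding sequences. The tF(GAA), tY(GUA) and tP(UGG) families were among those with low mean levels per copy. At point 3 they fell short of the drug-free level by 1.12 (counting SE 0.33), 0.93 (counting SE 0.33) and 1.54 (counting SE 0.28) on the log2 scale.

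Set per base of intron, the drug-free level per copy was 15.5 CPM for tI(UAU), 9.43 CPM for tS(GCU), 5.99 CPM for tX(XXX), 1.03 CPM for tS(CGA), 0.874 CPM for tW(CCA) and 0.608 CPM for tL(CAA). The other 5 families lay between 0.0295 CPM for tL(UAG) and 0.250 CPM for tY(GUA). Set instead per read start that can touch the intron, which is the intron length plus 49, the first 3 families kept their order, with 8.53 CPM for tI(UAU), 2.63 CPM for tS(GCU) and 1.74 CPM for tX(XXX). tW(CCA) then stood above tS(CGA), at 0.358 against 0.288 CPM, and tY(GUA) moved from place 7 to place 10. Levels of families in sums over copies are not compared, because copies share reads.

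The comparison of each drug alone with the drug-free library sets the tRNA introns beside the introns of protein-coding genes. Log2 changes were taken from counts with a pseudocount of 0.5 on the TMM scale, for the 56 tRNA features and 258 other nuclear introns with a mean of at least 5 counts. In LiCl only the median change was 0.13 for the tRNA features and 1.29 for the other introns. At least 2-fold higher were 3 tRNA features, against 48.4% of all 314 features tested, and at least 2-fold lower were 5, against 3.18%. The 3 were tP(UGG)O3, at 1.15 (counting SE 0.14), and tP(UGG)A and tP(UGG)M, which share their sequence and had 3 counts each without drug. The 5 were copies of tW(CCA), which share their sequence and lay at the 2-fold limit: the family change of -1.002 became -0.68 with coding-sequence totals without TMM factors and -0.35 scaled to introns that contain a snoRNA gene. By family the highest differences were 0.64 (counting SE 0.23) for tF(GAA) and 0.54 (counting SE 0.10) for tL(CAA), and tI(UAU) changed by 0.09 (counting SE 0.02). The tI(UAU) change became 0.41 with coding-sequence totals without TMM factors and 0.74 scaled to introns that contain a snoRNA gene. For tK(UUU), tS(CGA) and tS(GCU) the LiCl difference was -0.23, -0.29 and -0.25, and it turned to 0.09, 0.03 and 0.07 when the libraries were scaled by coding-sequence totals without TMM factors, which moved the median of the tRNA features to 0.45.

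In cycloheximide only the median change was 0.14 for the tRNA features and 0.18 for the other introns. One tRNA feature was at least 2-fold higher, against 8.60% of all features, and 9 were at least 2-fold lower, against 5.73%. The 9 were all tW(CCA) copies, tL(UAG)J, tL(UAG)L2 and tK(UUU)G2. The tW(CCA) copies have the same sequence, as do tL(UAG)J and tL(UAG)L2, so the 9 are not independent measurements. They also lay near the 2-fold limit. With coding-sequence totals without TMM factors the family changes were -0.80 for tW(CCA), -0.83 for tL(UAG) and -0.63 for tK(UUU). Scaled to introns that contain a snoRNA gene they were -1.37, -1.40 and -1.20. Among families, tL(CAA), tS(CGA), tF(GAA) and tX(XXX) were higher by 0.63 (counting SE 0.10), 0.50 (counting SE 0.11), 0.41 (counting SE 0.24) and 0.36 (counting SE 0.04). tW(CCA), tK(UUU) and tL(UAG) were lower, tL(UAG) by -1.13 with a counting SE of 0.78. tY(GUA) lay at -0.04 and turned to 0.26 without TMM factors. That scaling also moved tI(UAU) from 0.04 to 0.33 and the median of the tRNA features from 0.14 to 0.44. Scaled to introns that contain a snoRNA gene, the median of the tRNA features turned to -0.13, and tI(UAU) and tS(GCU) went from 0.04 and 0.20 to -0.23 and -0.07. The LiCl and cycloheximide comparisons share the drug-free library, so their like values for tW(CCA) are not independent.

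Between the 2 single drugs, the tRNA features had a median of 0.11 (LiCl only minus cycloheximide only) and the other introns 1.08. At least 2-fold higher in LiCl only were 3 tRNA features, against 43.9% of all features, and none was 2-fold lower, against 1.91%. The 3 were tF(GAA)D, tP(UGG)A and tP(UGG)M, with 6, 5 and 5 counts in cycloheximide only. The serine introns lay lower in LiCl only, by -0.79 (counting SE 0.09) for tS(CGA), -0.45 (counting SE 0.03) for tS(GCU) and -0.34 (counting SE 0.03) for tX(XXX). tK(UUU) lay higher, by 0.70 (counting SE 0.24). Scaled to introns that contain a snoRNA gene the serine differences turned to 0.13, 0.47 and 0.58.

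A larger difference was found between point 3 and the drug-free library, a comparison chosen after the levels had been seen. All 56 tRNA features were lower at point 3, with a median of -1.24, against 113 of the 258 other introns, with a median of 0.07. At least 2-fold lower were 45 tRNA features, against 22.3% of all features tested, and none was 2-fold higher, against 9.24%. The count of 45 depends on the scaling. With coding-sequence totals without TMM factors the median of the tRNA features was -1.01, and tL(CAA) moved from -1.04 to -0.82. tF(GAA)D had 0 counts at point 3, which allows a level of up to 0.209 CPM by the Poisson interval, and 6 without drug. By family the log2 change ranged from -2.57 (counting SE 1.24) for tL(UAG) and -2.38 (counting SE 0.16) for tW(CCA) to -0.93 (counting SE 0.33) for tY(GUA).

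**Figure D2:**
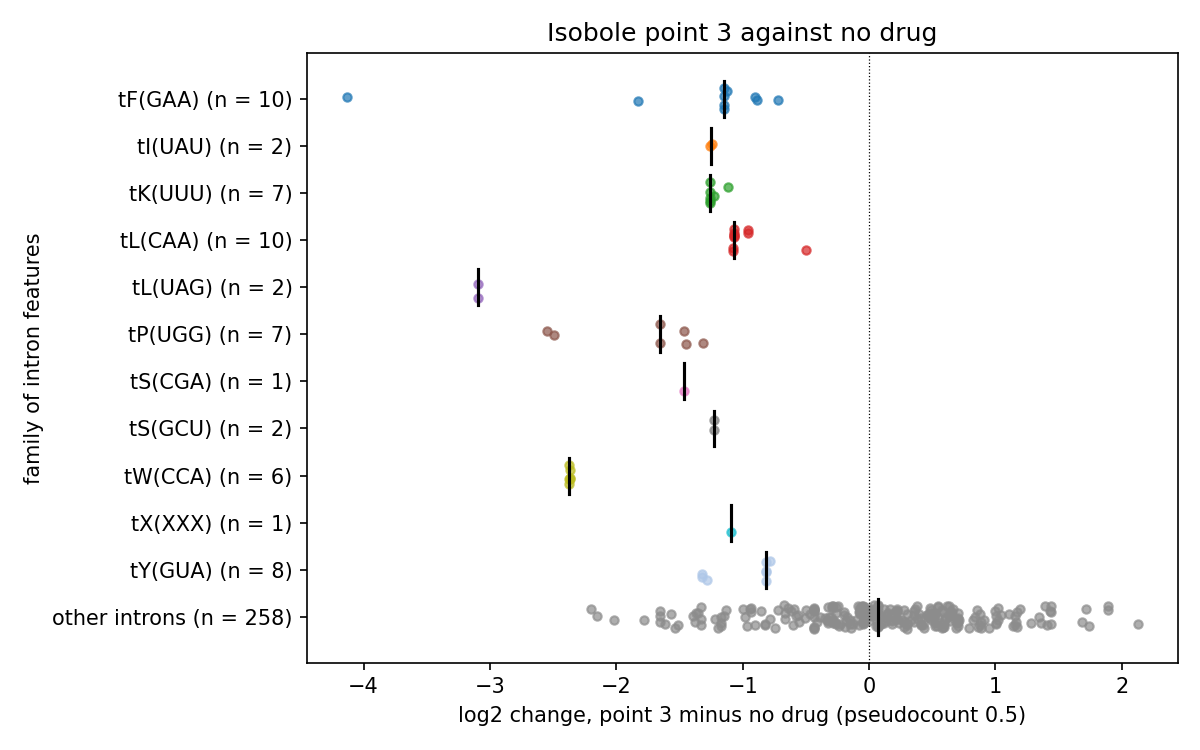
Log2 change from the drug-free library to isobole point 3 (pseudocount 0.5) of each feature with a mean of at least 5 counts, by tRNA family and for the other introns, with 1 dot per feature and a bar at the median. The 56 tRNA features all lie left of 0 with a median of -1.24, while the 258 other introns are centred at 0.07.

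Other introns that lie in or hold small RNA genes moved in their own ways. The 8 introns of protein-coding genes that contain an annotated snoRNA gene summed to 5293 CPM without drug, 6365 CPM in cycloheximide only and 3403 CPM at point 3, and then stayed between 3278 and 3834 CPM up to LiCl only. The 2 introns of the U3 snoRNA genes summed to 44.1 CPM without drug, 46.4 CPM at point 3 and 100.7 CPM in LiCl only. The remaining 289 introns of protein-coding genes summed to 1175 CPM without drug, 1108 CPM at point 3 and 2906 CPM in LiCl only. The tRNA introns shared a decline from points 1 to 3 with the snoRNA-containing introns and, unlike them, came back to 2990 CPM in LiCl only. Scaled to the snoRNA-containing introns in place of coding sequences, the median change of the tRNA features at point 3 was -0.60, all 11 families stayed lower than without drug, and 39 of the 60 features were lowest there. The part that recovery of short RNAs in each library has in these values was not tested.

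**Figure D3:**
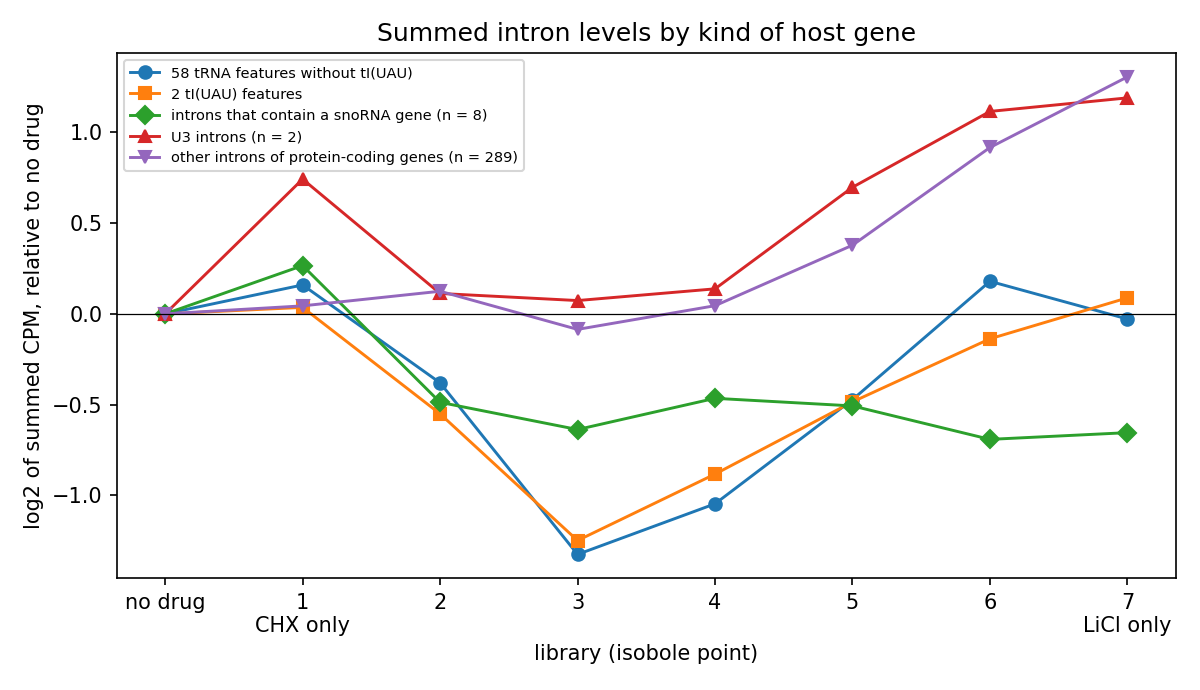
Summed CPM as log2 relative to the drug-free library for the 2 tI(UAU) introns, the 58 other tRNA introns, the 8 introns that contain a snoRNA gene, the 2 U3 introns and the 289 remaining introns of protein-coding genes, with 1 library per point and no error bars. Both tRNA lines have their low at point 3 and come back near the drug-free level at points 6 and 7, while the snoRNA-containing introns stay low and the remaining introns reach 2906 CPM in LiCl only.

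A linear trend along the 7 isobole libraries was fitted for each feature with edgeR's quasi-likelihood test, with p-values adjusted by Benjamini-Hochberg over all 314 features. The slope is in log2 per isobole point, from cycloheximide only to LiCl only. None of the 56 tRNA features passed an adjusted p of 0.05 in either direction, against 36% of all features rising and 0.955% falling. Without the LiCl-only library these shares were 3.18% and 0%, again with 0 tRNA calls. DESeq2's Wald test also gave 0. At an unadjusted p of 0.05 by edgeR, 4 tRNA features had rising slopes and none a falling one, against 144 and 5 of all 314 features. These 4 were tP(UGG)A with a slope of 0.30 (SE 0.12, adjusted p = 0.067, edgeR), tF(GAA)D with 0.32 (SE 0.14, adjusted p = 0.084, edgeR), tY(GUA)D with 0.15 (SE 0.07, adjusted p = 0.087, edgeR) and tP(UGG)M with 0.26 (SE 0.12, adjusted p = 0.096, edgeR). Of these 4, tP(UGG)A and tP(UGG)M have the same gene sequence, and tF(GAA)D had 0 counts at point 3 and 23 in LiCl only. Slopes were above 0 in 53 of 56 tRNA features, against 287 of all 314 features and 234 of the 258 other introns. The median slope was 0.09 for the tRNA features and 0.18 for the other introns. Of the other introns 113 rose and 3 fell, and 10 rose and 0 fell without the LiCl-only library.

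A straight line describes a course with a low in the middle poorly, and the number of tRNA calls turned on the first library. Without the cycloheximide-only library 20 of 56 tRNA features passed with rising slopes and none fell, against 48.1% of all features rising and 0.318% falling in that fit, so the share among tRNA features stayed below that of the other introns, of which 131 of 258 rose. The median slope of the tRNA features was then 0.21. The 20 were all 8 tY(GUA) features, with slopes of 0.22 to 0.25, 8 of 10 tF(GAA), 2 of 7 tP(UGG) and both tested tL(UAG) features. Both tI(UAU) features missed the threshold there, with adjusted p-values of 0.0517 and 0.0549 by edgeR. In this fit tW(CCA), tK(UUU), tL(CAA) and the serine families had 0 calls. Since copies share reads, these calls stand for fewer independent measurements than their number. Leaving out any of the other 6 libraries gave 0 tRNA calls.

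**Figure D4:**
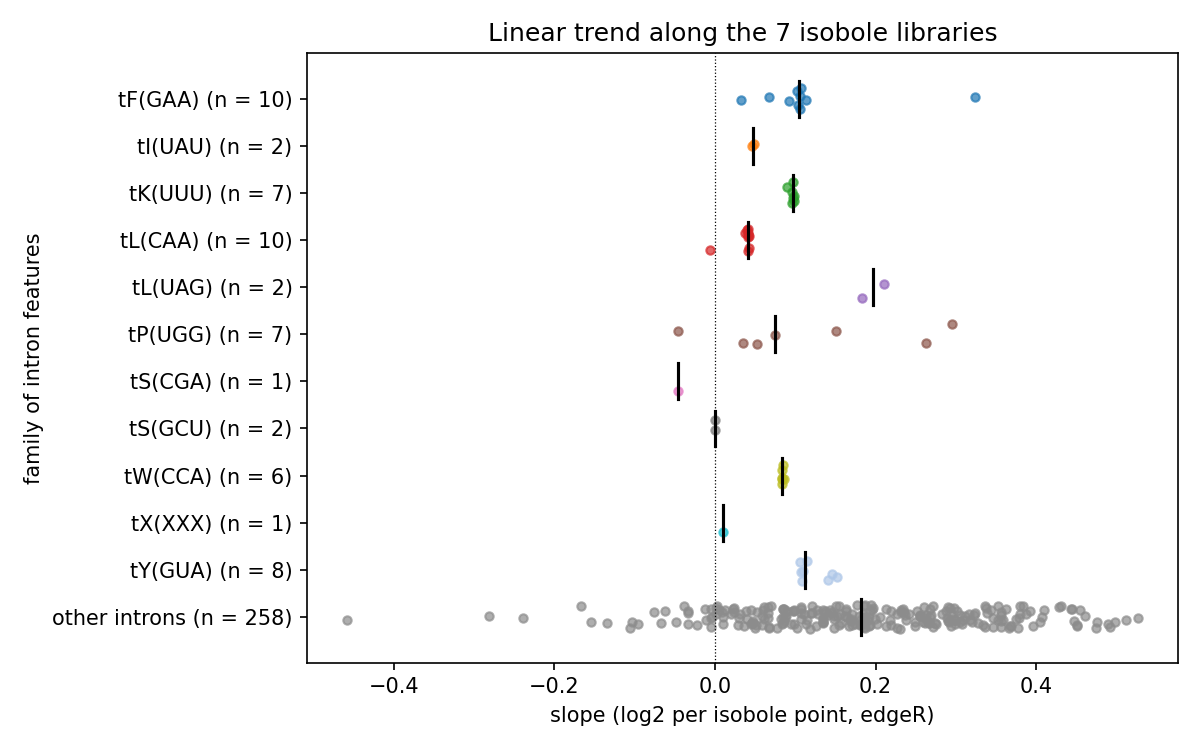
Slope along the 7 isobole libraries (log2 per isobole point, edgeR) of each feature with a mean of at least 5 counts, by tRNA family and for the other introns, with 1 dot per feature and a bar at the median. tRNA slopes run from -0.05 to 0.32 with a median of 0.09, and the other introns have a median of 0.18.

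Copies of a family carried counts that followed their sequence. The files count a read at every place it aligns, and 31.9% of the 4490 read starts over the 60 introns give a 50-base stretch found only once in the reference genome. In 45 members more read starts were shared than unique, and 5 members had no unique read start at all. Among the 79 pairs of copies with the same gene sequence, 67 had total counts within 5% of each other, 37 differed by at most 1 count in every library and 9 had the same counts in all 8 libraries. Of the 123 pairs that differ in their intron none had the same counts, and their totals differed 2.91-fold in the median. In all, 10 members had the same counts as another copy in every library, 4 of them the tL(CAA) genes C, G2, M and N with a mean of 23.1 CPM over the 8 libraries.

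In the lysine, tyrosine and leucine families, variants of the intron came with lower counts than the most common sequence. tK(UUU)G2, with C5T, had a mean of 1.77 CPM and 43.9% to 71.2% of the counts of tK(UUU)D, the joint highest copy at 3.17 CPM, in the 8 libraries. The 3 tyrosine genes with C5T, tY(GUA)D, tY(GUA)O and tY(GUA)J2, had means of 1.599, 1.621 and 1.583 CPM, of which tY(GUA)J2 was the lowest. The 5 others had about 4.1 CPM each, with tY(GUA)F2 highest at 4.10 CPM, and tY(GUA)D had 26.1% to 54.5% of the counts of tY(GUA)M1. In the tL(CAA) family the variants T19G in tL(CAA)A and A1C in tL(CAA)G1 had 86.7% and 95.9% of the mean level of tL(CAA)G3, the highest copy. tL(CAA)D, with an intron of 33 against 32 bases, had 87.5%. The lowest copy, tL(CAA)L, also has an intron of 33 bases, which differs from that of tL(CAA)D by A5T, C14T, G20T and G27A, and had 3.68 CPM or 10.6% to 21.3% of the counts of tL(CAA)C. Reads that fit 2 variants equally are counted at both. A read shared by identical copies is counted at each of them, and the variants are carried by fewer genes. For example, 6 genes have the sequence of tK(UUU)D and 1 has that of tK(UUU)G2. These ratios are thus not transcription rates of the genes.

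In the tF(GAA) family the 6 genes with the usual sequence had means of 5.62 to 6.22 CPM, with tF(GAA)G highest, and the 4 others 0.469 to 1.596 CPM, with tF(GAA)D lowest. tF(GAA)D carries C10T and T18A in its intron and shares none of its 68 read starts with another place. The 6 tW(CCA) copies lay between 14.5 CPM, for tW(CCA)G2 and tW(CCA)M, and 14.6 CPM, for tW(CCA)P. tS(GCU)F and tS(GCU)O had 146.4 and 146.3 CPM, tI(UAU)L and tI(UAU)D had 752 and 725 CPM, and the 3 tL(UAG) copies had 0.241 to 0.284 CPM.

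**Figure D5:**
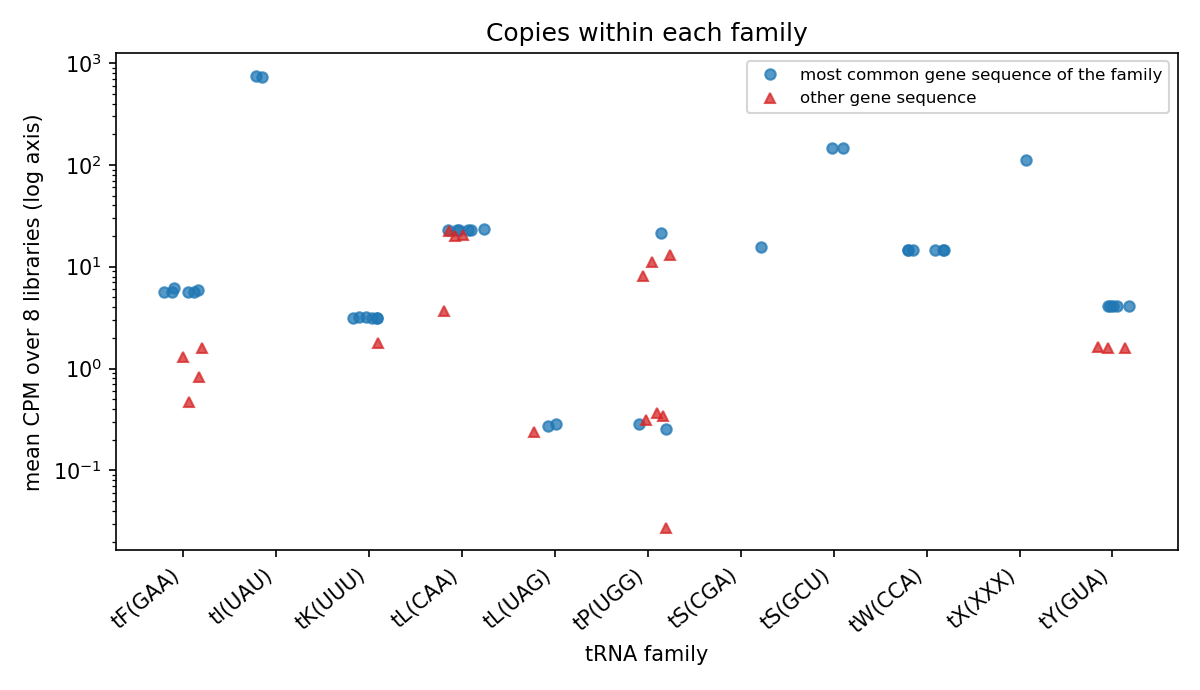
Mean CPM over the 8 libraries of each tRNA intron feature on a log axis, by family, with circles for copies that carry the most common gene sequence of the family and triangles for copies with another sequence. Circles lie close together in every family but tP(UGG), where tP(UGG)N1 at 21.5 CPM stands far above tP(UGG)H at 0.254 CPM and tP(UGG)N2 at 0.282 CPM.

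The proline family broke this pattern. The genes tP(UGG)N1, tP(UGG)H and tP(UGG)N2 have the same sequence, printed for tP(UGG)N1, yet tP(UGG)N1 was the highest copy of the family with 343 counts without drug, 810 in cycloheximide only, 233, 186, 167, 272 and 449 at points 2 to 6 and 875 in LiCl only. tP(UGG)H had 8 without drug, 3 in cycloheximide only, 4, 3, 3, 3 and 4 at points 2 to 6 and 6 in LiCl only, and its counts were at most 2.33% of those of tP(UGG)N1 in any library. Of the 80 read starts over this intron 54 lie wholly inside the gene and are common to the 3 copies, and 26 reach into the flanks, and a full-length read from inside the gene fits all 3 equally. Reads that leave the gene reach up to 13 bases to either side. The flanks differ among the 3 copies, as shown here 5′ to 3′ in capitals for the bases before and after each gene.
tP(UGG)N1 before: ACACGAAATAATC
tP(UGG)N1 after: GTTATCTTTTTTC
tP(UGG)H before: CCAACAGATACAT
tP(UGG)H after: ATTATAATTTTTT
tP(UGG)N2 before: CCATAAAATAATC
tP(UGG)N2 after: TTTATATTTTTTC

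The intron of tP(UGG)N1 lies inside the annotated coding sequence YNL042W-B (chromosome XIV, 547113 to 547370, plus strand), and its counts were 78.2% to 95.01% of those given to that coding sequence. Of the other proline introns, tP(UGG)O2 lies inside YOR072W-B (chromosome XV, 464469 to 464630, plus strand), which had 98.1% to 100% as many counts in the intron as in the whole coding sequence, and tP(UGG)O1 lies inside YOL013W-A (chromosome XV, 301047 to 301238, plus strand), with 49.3% to 79.6%. These are the only 3 tRNA introns that overlap a counted coding sequence. They and tP(UGG)O3, at 11.1 CPM, were the proline copies with the most counts, at 21.5 CPM for tP(UGG)N1, 12.9 CPM for tP(UGG)O2 and 8.15 CPM for tP(UGG)O1. The other 6 copies had 0.0273 to 0.368 CPM, with tP(UGG)L lowest. Whether reads at these 3 loci come from a tRNA precursor or from a longer transcript was not tested. The counting ignored strand.

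Genes that make and process tRNAs were read from the coding-sequence table, in 5 lists, with the same trend test over 6498 coding sequences, of which 15.6% rose and 15.6% fell. None of the 6 tRNA splicing genes passed, by edgeR or by DESeq2's Wald test, and at an unadjusted p of 0.05 by edgeR SEN2 and TRL1 had positive slopes. SEN2 had a slope of 0.07 (SE 0.03, adjusted p = 0.074, edgeR), SEN34 0.11 (SE 0.05, adjusted p = 0.118, edgeR), SEN54 -0.03 (SE 0.02, adjusted p = 0.417, edgeR) and SEN15 0.05 (SE 0.06, adjusted p = 0.552, edgeR), the 4 endonuclease subunits. The ligase TRL1 had a slope of 0.06 (SE 0.02, adjusted p = 0.0795, edgeR) and the phosphotransferase TPT1 one of 0.06 (SE 0.03, adjusted p = 0.148, edgeR). The list's median slope was 0.06, against 0.0026 over all coding sequences. TRL1 had 14.7 CPM without drug, 27.9 CPM at point 1 and 34.2 CPM at point 7, while SEN2 had 12.8, 9.66 and 13.5 CPM.

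None of the 7 nuclear export genes passed by edgeR, against 1 that fell by DESeq2's Wald test, and 2 fell at an unadjusted p of 0.05 by edgeR, with LOS1, the main exporter of unspliced tRNAs, at 0.04 (SE 0.03, adjusted p = 0.238, edgeR). Of the 13 genes for end processing 4 rose and none fell. The steepest were POP3, a subunit of RNase P, with 0.18 (SE 0.05, adjusted p = 0.0248, edgeR), TRZ1, which cuts off the 3′ trailer, with 0.17 (SE 0.02, adjusted p = 0.00151, edgeR) and POP1, the large RNase P protein, with 0.14 (SE 0.03, adjusted p = 0.00364, edgeR). TRZ1 had 10.3 CPM without drug, 21.8 CPM at point 1 and 45.9 CPM at point 7.

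Of 19 genes for RNA polymerase III and its factors 6 rose and 1 fell. RPC31 and RPC25, subunits of the enzyme, rose with slopes of 0.17 (SE 0.05, adjusted p = 0.0329, edgeR) and 0.15 (SE 0.03, adjusted p = 0.0102, edgeR), and TFC6, a subunit of the initiation factor TFIIIC, with 0.11 (SE 0.03, adjusted p = 0.0129, edgeR). MAF1, the repressor of the enzyme, fell with a slope of -0.08 (SE 0.02, adjusted p = 0.026, edgeR). Of 8 decay genes 3 rose, TRF5 with 0.26 (SE 0.05, adjusted p = 0.00665, edgeR), RRP6 with 0.17 (SE 0.03, adjusted p = 0.00457, edgeR) and RAT1 with 0.09 (SE 0.02, adjusted p = 0.0148, edgeR). These act in nuclear RNA surveillance and decay. MET22, the lithium-sensitive phosphatase whose substrate inhibits Xrn1 and Rat1, fell with a slope of -0.13 (SE 0.02, adjusted p = 0.00315, edgeR), from 67.4 CPM in cycloheximide only to 39.6 CPM in LiCl only, with 88.4 CPM without drug. XRN1 had a slope of 0.01 (SE 0.03, adjusted p = 0.745, edgeR). Without the LiCl-only library 1 RNA polymerase III gene rose and none fell, and without the cycloheximide-only library 2 rose and none fell, while 2 end-processing genes rose in either case.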

How the data were processed

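Total RNA depleted of ribosomal RNA was sequenced as single 50-base reads from 8 cultures of BY4741, 1 per condition. The deposited tables hold raw counts: per the file headers, the authors counted reads on introns and on coding sequences with featureCounts 1.6.2, with multiply aligned reads counted at every place, reads counted at every overlapping feature, and no strand setting. Per the labels, reads were aligned with TopHat to build R64. How reads of spliced tRNAs were aligned across introns shorter than a read is not given in the sources used here. Multiple placement raises and equalises the counts of similar copies.

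Library sizes were coding-sequence totals times TMM factors (edgeR 4.0.16, R 4.3.3). Features with a mean of at least 5 counts entered the trend fit (glmQLFit, glmQLFTest, isobole point as a number, 5 residual degrees of freedom, drug-free library left out), which was tested on simulated data. The 12 mitochondrial introns, at 0 counts, were left out. DESeq2 1.42.0, limma 3.58.1, Python 3.11.15, pandas 2.3.3, scipy 1.17.1 and biopython 1.88 were also used. Counting SEs and Poisson intervals cover counting error only. The counting SE of a family took the mean count of a copy as the reads of the family. It overstates counting error where copies share few reads, as for tP(UGG)O3, with 79 of 82 read starts unique. Every tRNA family is described, with its highest and lowest copy by mean level, and in the pathway lists the 6 splicing genes and up to 3 genes with the steepest slope in each direction past the threshold are named. LOS1 and XRN1 were named outside this rule, after their values were seen. The members and lists were chosen with earlier results of these data known. With 1 library per condition, p-values measure only scatter around a line.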

Additional observations from a re-analysis of the deposited data

How the results depend on the processing

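The trend calls of the tRNA features were 0 in both directions with coding-sequence totals, DESeq2 size factors, DESeq2's Wald test, no filter on low counts, a mean of at least 50 counts, introns and coding sequences in 1 table, and 1 row per family. When each isobole library was left out in turn, 0 to 20 features rose, the 20 without the cycloheximide-only library, and the median slope ranged from 0.038 to 0.214. Scaling to the snoRNA-containing introns, chosen after seeing the data, moved the median change of the tRNA features to 0.79 for LiCl only minus no drug, -0.13 (from 0.14) for cycloheximide only minus no drug, 1.03 for LiCl only minus cycloheximide only and -0.60 for point 3 minus no drug. The number lowest at point 3, with the tied tP(UGG)L included, was 56 with coding-sequence totals, 55 with DESeq2 size factors and 39 with that scaling. Among the pathway lists, 1 nuclear export gene fell by DESeq2's Wald test, and 0 to 1 fell with an end library left out. End-processing genes that rose numbered 2 in both such fits and RNA polymerase III genes 1 to 2, and MAF1 was lost (0 falling) in both and also with coding-sequence totals. No paired analysis was possible because each condition has 1 library.

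The depth limits the 4 members with fewer than 5 counts in the mean and the tL(UAG) family, for which neighbouring libraries cannot be told apart. One library per condition means that culture, library preparation and condition cannot be told apart.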
